A study of Mus musculus with 8 samples.

Results

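Granins, prohormone convertases and the proteins that assist them make and load the peptide cargo of neurons. The 10 genes described here are Chga, Chgb, Scg3, Scg5, Pcsk1, Pcsk1n, Pcsk2, Cpe, Resp18 and Baiap3, taken by symbol from a count table of 55416 genes, and all 10 were among the 18627 genes that received an adjusted p. They were measured by stranded mRNA sequencing of mouse cerebral cortex in 4 samples with a heterozygous L192P knock-in of Ago2 (genotype AGO2_L192P/+, called L192P) and 4 wild-type samples (WT), with 1 library each. The allele was made by CRISPR/Cas editing and kept heterozygous by repeated mating to WT, on a C57/Bl6 background as far as the crosses are described. Every L192P animal thus still carried 1 WT copy of Ago2 and had survived to birth from a cross that yields few heterozygotes. Age, sex and the number of founder lines are not given in the sources used here. A gene-level count cannot show a point substitution, so the genotype itself was not checked.

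Neuropeptides and peptide hormones are made as long precursors that enter the secretory pathway. Granins condense with the precursors in the trans-Golgi network, and the resulting dense-core vesicles carry convertases that cut at paired basic residues, a carboxypeptidase that trims the new ends, and inhibitors or chaperones of the convertases. In cortex this machinery serves mainly interneuron peptides and cholecystokinin, while hypothalamic neurosecretory cells are especially rich in it. Argonaute 2, the product of Ago2, holds a miRNA and brings it to complementary sites in mRNAs, and the comparison asked which cortical transcripts differ in abundance when 1 copy carries the substitution.

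Library totals ran from 20396357 to 43575900 counts, with WT replicate 2 the deepest. Values below are normalized counts, meaning raw counts over the size factor that DESeq2 estimated for that library, and a gene was called when its DESeq2 Benjamini-Hochberg adjusted p was under 0.05. Replicate 1 of both genotypes stood apart from the other 6 libraries in sex-linked transcripts. Xist was at 0.934 and 1.82 normalized counts in L192P and WT replicate 1, against 5185 to 7257 in the others. Raw counts on Y-linked genes were 3547 and 3534 in that pair, against 186 to 573. Results are therefore also given without that pair where they moved. Labels do not say that the libraries come from separate animals, and the p-values measure the spread between these libraries.

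Only Resp18 and Baiap3 of the 10 genes were called between genotypes, both higher in L192P, and none was called lower. The background in the same test was 1.36% of 18627 genes called, 0.789% higher and 0.569% lower (147 and 106 genes, or 168 and 64 with total-count size factors). The 10 genes were chosen with earlier results of these data known, so this background is a description and no test. With edgeR, which called 0.314% of genes, and with limma-voom, which called 0.266%, the same 2 of the 10 were called. The groups did not overlap for these same genes and for no other of the 10, while 5.97% of all tested genes had groups that did not overlap, 3.01% with L192P higher and 2.96% with L192P lower. The median log2 fold change over the 10 genes was -0.016, beside 0.0019 over all tested genes. Summed over the 10 genes, the share of a library's counts was 0.36% ± 0.0181 (SD, n = 4) in L192P and 0.358% ± 0.0164 (SD, n = 4) in WT. Both shares lay within 1 SD of each other.

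**Figure D1:**
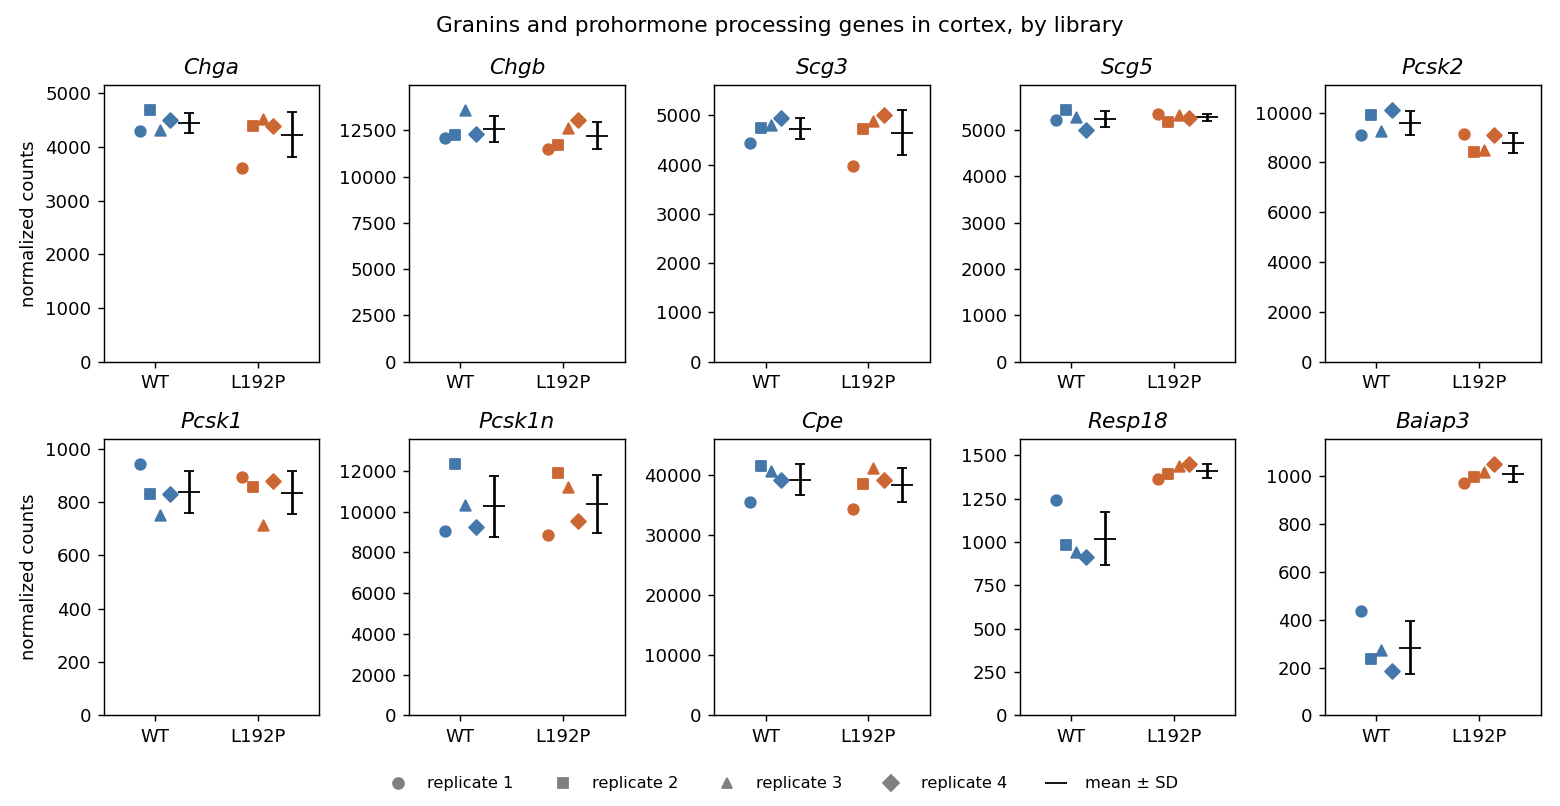
Normalized counts (y axis, from 0) of the 10 genes in the 4 WT and 4 L192P libraries, 1 panel per gene, with a marker shape per replicate number and black bars for the mean and SD of each genotype. The groups are apart in the panels of Resp18 and Baiap3 and overlap in the other 8.

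Per kilobase of canonical transcript, Cpe stood highest, at a mean level of 15730 normalized counts over the 8 libraries. Pcsk1n (4662), Scg5 (4292), Chgb (3401), Chga (2224), Scg3 (1527), Pcsk2 (1508) and Resp18 (1288) followed in that order of level per kilobase. In L192P alone Resp18 (1496) was above Pcsk2 (1442) in mean level per kilobase, and in WT alone it was below (1081 and 1574). Pcsk1 and Baiap3 were lowest, at 139 and 135 normalized counts per kilobase. The library ranges overlapped between Pcsk1n and Scg5, between Scg3 and Pcsk2, between Pcsk2 and Resp18, and between Pcsk1 and Baiap3, so the order within those pairs is not fixed by these data. Baiap3 lay at 59.1 normalized counts per kilobase in WT and at 210 in L192P, on either side of Pcsk1.

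Chga encodes chromogranin A, an acidic calcium-binding granin of endocrine and neuronal vesicles. Chga (ENSMUSG00000021194) lies on GRCm39 at chr12:102520484-102531300. Its normalized counts were 3605, 4387, 4520 and 4399 in L192P replicates 1 to 4 and 4291, 4687, 4323 and 4500 in the WT replicates. L192P replicate 1 was the lowest library and the other 7 were interleaved. Its log2 fold change was -0.075 (SE 0.077, 95% interval -0.23 to 0.076), at a DESeq2 adjusted p of 0.883.

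Chgb encodes chromogranin B, the highest of Chga, Chgb and Scg3 per kilobase. Chgb (ENSMUSG00000027350, chr2:132622464-132637904) had 11474, 11714, 12647 and 13045 normalized counts in L192P and 12086, 12272, 13595 and 12331 in WT. The groups overlapped, with replicate 3 of WT the highest of all. DESeq2 gave a log2 fold change of -0.041 (SE 0.064, 95% interval -0.17 to 0.084) and an adjusted p of 0.945.

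Scg3 encodes secretogranin III, which ties chromogranin A to the cholesterol-rich vesicle membrane. Scg3 (ENSMUSG00000032181, chr9:75546929-75591396) had 3978, 4714, 4893 and 4999 normalized counts in L192P and 4446, 4739, 4802 and 4939 in WT. As with Chga, L192P replicate 1 was lowest and the remaining libraries overlapped. Between genotypes the log2 fold change of -0.027 (SE 0.077, 95% interval -0.18 to 0.12) had a DESeq2 adjusted p of 0.982 and turned to 0.04 without that library. Among deviations from the genotype means over the 8 libraries, Chga and Scg3 had a Pearson r of 0.895, a description over libraries that share the same size factors. Cpe followed both, at r of 0.826 with Chga and 0.831 with Scg3.

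Pcsk1 and Pcsk2 encode PC1/3 and PC2, the endoproteases that cut most neuropeptide precursors, and each has a small partner protein. Pcsk1 (ENSMUSG00000021587, chr13:75237284-75284898) had 893, 858, 715 and 878 normalized counts in L192P and 944, 829, 753 and 831 in WT. In both genotypes replicate 1 was highest and replicate 3 lowest, and the groups overlapped throughout. DESeq2 gave a log2 fold change of -0.0059 (SE 0.097, 95% interval -0.2 to 0.18) and an adjusted p of 0.998.

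Pcsk1n encodes proSAAS, which binds and inhibits PC1/3. Pcsk1n (ENSMUSG00000039278, chrX:7786043-7790649) had 8824, 11900, 11202 and 9551 normalized counts in L192P and 9052, 12345, 10338 and 9248 in WT. The replicate numbers were ordered alike in both genotypes, with replicate 2 highest and replicate 1 lowest. Its log2 fold change was 0.017 (SE 0.11, 95% interval -0.2 to 0.23), at a DESeq2 adjusted p of 0.993. The ratio of Pcsk1n to Pcsk1 counts, not corrected for length, was 12.6 ± 2.67 (SD, n = 4) in L192P and 12.3 ± 2.41 (SD, n = 4) in WT. On the log2 scale the ratios differed by 0.025, with an exact two-sided permutation p of 0.83 and L192P higher in 2 of 4 same-numbered pairs.

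Pcsk2 was the only 1 of the 10 genes whose interval lay below 0, yet it was not called. Pcsk2 (ENSMUSG00000027419, chr2:143387993-143659507) had 9148, 8404, 8498 and 9110 normalized counts in L192P and 9116, 9916, 9241 and 10099 in WT. All WT libraries but replicate 1 were above every L192P library, and WT replicate 1 lay just under L192P replicate 1. Its log2 fold change was -0.13 (SE 0.059, 95% interval -0.24 to -0.011), with an unadjusted p of 0.0315, a DESeq2 adjusted p of 0.437, and an exact two-sided permutation p of 0.0571 on the normalized counts. Among all tested genes, 9.44% had an unadjusted p under 0.05. In 1 of 19 alternative fits, without both libraries numbered 1 and with the replicate number as a block, Pcsk2 was called lower (log2 fold change -0.17, DESeq2 adjusted p 0.0251). That fit was added after the data were seen, called 572 genes in all, and gave the lowest of the 19 adjusted p for Pcsk2, which reached 0.86.

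Scg5 encodes 7B2, the chaperone that PC2 needs to become active. Scg5 (ENSMUSG00000023236, chr2:113606688-113660094) had 5348, 5171, 5315 and 5248 normalized counts in L192P and 5214, 5425, 5269 and 5006 in WT. It was the steadiest of the 10 genes, with an SD of 0.035 log2 units over the 8 libraries. DESeq2 gave a log2 fold change of 0.011 (SE 0.049, 95% interval -0.085 to 0.11) and an adjusted p of 0.989.

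The count ratio of Scg5 to Pcsk2 does not depend on library scaling. On the log2 scale it was -0.775, -0.701, -0.677 and -0.796 in L192P and -0.806, -0.87, -0.811 and -1.01 in WT. Every L192P library lay above every WT library, though L192P replicate 4 and WT replicate 1 were nearly level. The difference of 0.14 had an exact two-sided permutation p of 0.0286, the smallest that 4 against 4 libraries can give, and a p of 0.0571 after adjustment over both ratios tested. Same-numbered pairs showed L192P higher in 4 of 4, with an exact sign-flip p of 0.125, the smallest that 4 pairs can give. Without WT replicate 4 the difference was 0.092.

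**Figure D2:**
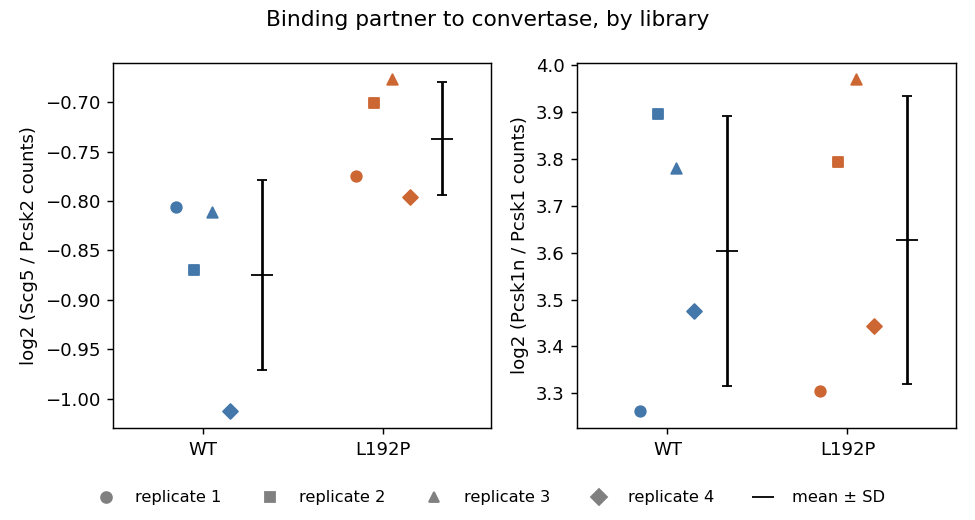
The log2 ratio of Scg5 to Pcsk2 counts (left) and of Pcsk1n to Pcsk1 counts (right) in each library (y axes, which do not start at 0), with a marker shape per replicate number and black bars for the mean and SD of each genotype. On the left the L192P libraries lie from -0.796 to -0.677 and the WT libraries from -1.01 to -0.806, while on the right the genotypes overlap.

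Cpe encodes carboxypeptidase E, which removes the basic residues left by the convertases. Cpe (ENSMUSG00000037852, chr8:65045555-65146435) had 34354, 38446, 41189 and 39140 normalized counts in L192P and 35547, 41491, 40693 and 39159 in WT. Replicate 1 was lowest in both genotypes and the groups overlapped. Its log2 fold change was -0.035 (SE 0.071, 95% interval -0.17 to 0.1), at a DESeq2 adjusted p of 0.964.

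Resp18 was raised in every L192P library. Resp18 encodes a small secretory-pathway protein of endocrine and peptidergic cells, related to the luminal part of the vesicle protein Ptprn. Resp18 (ENSMUSG00000033061, chr1:75248842-75255253) had 1361, 1393, 1438 and 1449 normalized counts in L192P and 1243, 981, 943 and 911 in WT. The L192P libraries were close together, at 1410 ± 40.8 (SD, n = 4), and the WT libraries were at 1019 ± 152 (SD, n = 4), with WT replicate 1 nearest to L192P. The ratio of means was 1.38 and the log2 fold change 0.47 (SE 0.096, 95% interval 0.28 to 0.66), with a DESeq2 adjusted p of 0.00045 and an exact two-sided permutation p of 0.0286, the smallest possible. The difference was present in each of the 4 same-numbered pairs, at folds of 1.09, 1.42, 1.52 and 1.59 for replicates 1 to 4. All 19 alternative fits called Resp18, at log2 fold changes of 0.42 to 0.59, and the highest adjusted p were 0.0491 with edgeR and 0.0496 with limma-voom.

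Baiap3 showed the largest difference of the 10 genes. It encodes a C2-domain protein of the Munc13 family that acts in dense-core vesicle maturation and in return traffic to the trans-Golgi network. Baiap3 (ENSMUSG00000047507, chr17:25461632-25475491) had 971, 996, 1019 and 1053 normalized counts in L192P and 438, 237, 275 and 185 in WT. The lowest L192P library was above the highest WT library by more than the whole WT range. Means were 1010 ± 35 (SD, n = 4) and 284 ± 109 (SD, n = 4), a ratio of 3.56. DESeq2 gave a log2 fold change of 1.83 (SE 0.26, 95% interval 1.32 to 2.34), an adjusted p of 6.51e-09 and an exact two-sided permutation p of 0.0286, the smallest possible. Folds within same-numbered pairs were 2.22, 4.21, 3.71 and 5.69. All 19 alternative fits called Baiap3, at log2 fold changes of 1.68 to 2.15, and edgeR gave the highest adjusted p, 0.00461. Leaving out WT replicate 1, the library nearest to L192P, gave a log2 fold change of 2.12. Without both libraries numbered 1 the log2 fold changes were 2.13 for Baiap3 and 0.59 for Resp18, and both genes were called.

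**Figure D3:**
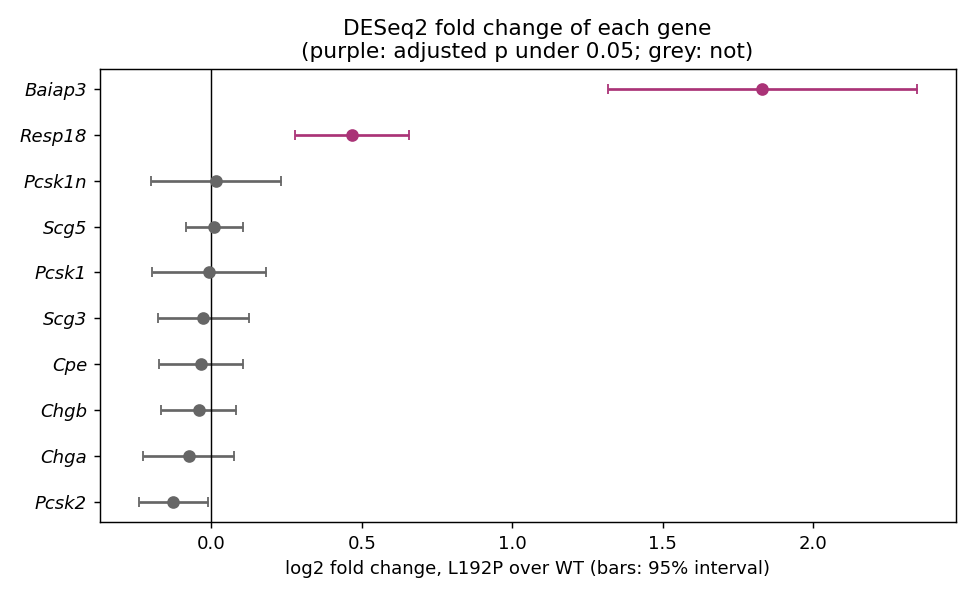
DESeq2 log2 fold change of L192P over WT for each of the 10 genes (x axis) with its 95% interval (bars), in order of size; purple marks an adjusted p under 0.05 and grey the rest. Baiap3 at 1.83 and Resp18 at 0.47 lie to the right of 0, and of the other 8 only the interval of Pcsk2 does not reach 0.

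Resp18 and Baiap3 also varied together between libraries of a genotype. Their deviations from the genotype means had a Pearson r of 0.924 over the 8 libraries, the highest of the 45 pairs among the 10 genes, whose median r was -0.038. The spread was carried mainly by WT, where the coefficient of variation was 14.9% for Resp18 and 38.5% for Baiap3, against 2.89% and 3.47% in L192P. Within WT, replicate 1 was highest for both genes. Baiap3 was at 438 there against 185 to 275 in the other WT libraries, and Resp18 at 1243 against 911 to 981. Those other WT libraries were ordered differently for the 2 genes, while the L192P libraries were ordered alike. The r was not computed without WT replicate 1. Pcsk2 deviated the other way, at r of -0.661 with Baiap3 and -0.508 with Resp18. These correlations are descriptions over 8 libraries that share size factors.

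The sequence upstream of Resp18 and Baiap3 is shown because both were called higher in L192P. Each is the 250 bases before the start of the canonical transcript in GENCODE, read from GRCm39 on the minus strand, 5′ to 3′, with no capitals because none of the motifs searched was found.
Resp18, chr1:75255254-75255503: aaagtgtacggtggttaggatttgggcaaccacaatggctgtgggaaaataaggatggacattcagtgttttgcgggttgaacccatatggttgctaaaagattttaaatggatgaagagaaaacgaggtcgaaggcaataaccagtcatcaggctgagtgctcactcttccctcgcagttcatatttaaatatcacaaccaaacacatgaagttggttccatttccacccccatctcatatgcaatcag
Baiap3, chr17:25475492-25475741: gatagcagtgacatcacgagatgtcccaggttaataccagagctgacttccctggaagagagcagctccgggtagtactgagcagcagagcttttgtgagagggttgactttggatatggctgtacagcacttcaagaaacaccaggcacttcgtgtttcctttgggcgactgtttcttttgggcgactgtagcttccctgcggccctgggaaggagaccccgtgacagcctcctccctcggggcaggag

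The motifs searched on both strands of the 10 windows were the cAMP response element TGACGTCA, its core TGACG, the GC box GGGCGG, the TATA box TATAAA and the left part of the RE1 silencer element, TTCAGCACC. Windows of Resp18 and Baiap3 held none of them, and their GC content was 42.8% and 55.2%, beside a median of 51.2% over 32327 promoters. The GC box was in 3 of the 10 windows (Chga, Pcsk1n and Pcsk2), beside 29.4% of all promoters. TATA and RE1 letters were in none of the 10, beside 12.5% and 0.294% of all. The full cAMP element, bound by CREB and related factors, was in Pcsk1 alone of the 10 and in 1.29% of all promoters, and the core, which the full element contains, was in Scg3, Scg5 and Pcsk1 and in 16.2% of all. The matches nearest to the full element are shown with the motif in capitals, on the gene's strand. The Pcsk1 window lies in an exon of other Pcsk1 transcripts. Exons of other Scg3 transcripts cover 37 bases of the Scg3 window, including the match shown. Chga exons cover 32 bases of the Chga window, and Pcsk2os1 and Pcsk2 exons cover 154 and 14 bases of the Pcsk2 window.
Pcsk1, chr13:75237887-75237916: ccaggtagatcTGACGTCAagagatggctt
Scg5, chr2:113659596-113659622: aaggaggtaaaTGACGttcataggggt
Scg3, chr9:75591360-75591379: cgctgggtcgcTGACGccat
None of these 3 genes was called, and a match in a window is a description of its letters.

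Some genes known from hypothalamus were also called higher in L192P, and their part in the rise of Baiap3 and Resp18 was not tested. In bulk tissue, more cells of a type and more RNA per cell cannot be told apart. Of 12 hypothalamus markers, 7 were tested, 3 of them were called higher (Otp, Irs4 and Calcr) and none lower, beside the background of 1.36%. Their summed level was 353 to 466 normalized counts in L192P and 110 to 205 in WT, highest among WT in replicate 1. This list and that of hypothalamic peptide precursors were chosen with earlier results of these data known. The background is therefore a description and no test of either list. Hmx3 and Six6 were at 0 in all WT libraries and averaged 5.81 and 1.72 normalized counts in L192P, with Six6 at 0 in L192P replicate 3. The other untested markers, Hmx2, Rax and Nr5a1, averaged 0.467, 1.66 and 4.83 in L192P and 0.727, 1.02 and 0.597 in WT. At such low counts none of these markers received an adjusted p.

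Otp, a homeobox gene of neurosecretory neurons, had 64.5, 12.5, 41.5 and 43.1 normalized counts in L192P and 11.8, 1.13, 1.09 and 1.17 in WT (log2 fold change 3.42, SE 0.66, DESeq2 adjusted p 0.000129). Irs4, an insulin receptor substrate concentrated in hypothalamus, had 173, 132, 79.6 and 160 in L192P and 54.6, 10.2, 22.8 and 15.2 in WT (log2 fold change 2.41, SE 0.56, DESeq2 adjusted p 0.00385). Calcr, the calcitonin receptor, had 29.9, 31.9, 28.8 and 39.5 in L192P and 15.5, 3.39, 4.34 and 2.34 in WT (log2 fold change 2.35, SE 0.49, DESeq2 adjusted p 0.000675). Otp was not called with edgeR or limma-voom (highest adjusted p 0.0659) nor Calcr with edgeR (adjusted p 0.0527), while Irs4 was called in all 19 alternative fits. Like Baiap3 and Resp18, each of these 3 genes was highest, among the WT libraries, in WT replicate 1. Nkx2-1, the marker with the highest mean count among those not called, had 86.1 ± 18.4 (SD, n = 4) in L192P and 53.2 ± 11.7 (SD, n = 4) in WT, with a DESeq2 adjusted p of 0.138. With the replicate block Irs4 was called too, and Otp and Calcr were set aside by the filter on low means with no adjusted p.

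Hypothalamic peptide precursors formed a separate list. Of 12 listed, 8 were tested, 3 were called higher (Avp, Oxt and Gal) and none lower, with Kiss1 at 0 in every library. Pmch and Hcrt were set aside by the Cook filter, with no p. Pmch had 16.8, 2.28, 262 and 0 normalized counts in L192P and 3.64, 1.7, 0 and 0 in WT. Hcrt had 12.2, 1.14, 178 and 0 in L192P and 3.64, 2.82, 2.17 and 3.51 in WT. Avp, the vasopressin precursor, had 329, 19.4, 459 and 220 normalized counts in L192P and 21.9, 10.7, 11.9 and 10.5 in WT (log2 fold change 4.22, SE 0.83, DESeq2 adjusted p 0.000155). Oxt, the oxytocin precursor, had 145, 19.4, 143 and 154 in L192P and 2.73, 5.08, 7.6 and 4.68 in WT (log2 fold change 4.53, SE 0.72, DESeq2 adjusted p 3.69e-07). For Avp the groups overlapped, since L192P replicate 2 was under WT replicate 1.

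Avp and Oxt were not called with limma-voom (adjusted p 0.341 and 0.143). In L192P replicate 2, Avp, Oxt and Otp were low for the genotype, while Irs4 at 132, Calcr at 31.9, Baiap3 at 996 and Resp18 at 1393 lay within the range of the other L192P libraries. Gal, the galanin precursor, had 30.2 ± 14.8 (SD, n = 4) in L192P and 8.56 ± 3.57 (SD, n = 4) in WT, with a DESeq2 adjusted p of 0.0209, and 10 of 16 alternative fits called it, with adjusted p up to 0.186. Cartpt, the precursor with the highest mean count on this list, was not called, at 313 ± 53.5 (SD, n = 4) against 273 ± 42.4 (SD, n = 4). With the replicate block, Avp and Trh (log2 fold change 0.94, DESeq2 adjusted p 0.0022) were called higher on this list, while Oxt and Gal were given no adjusted p.

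**Figure D4:**
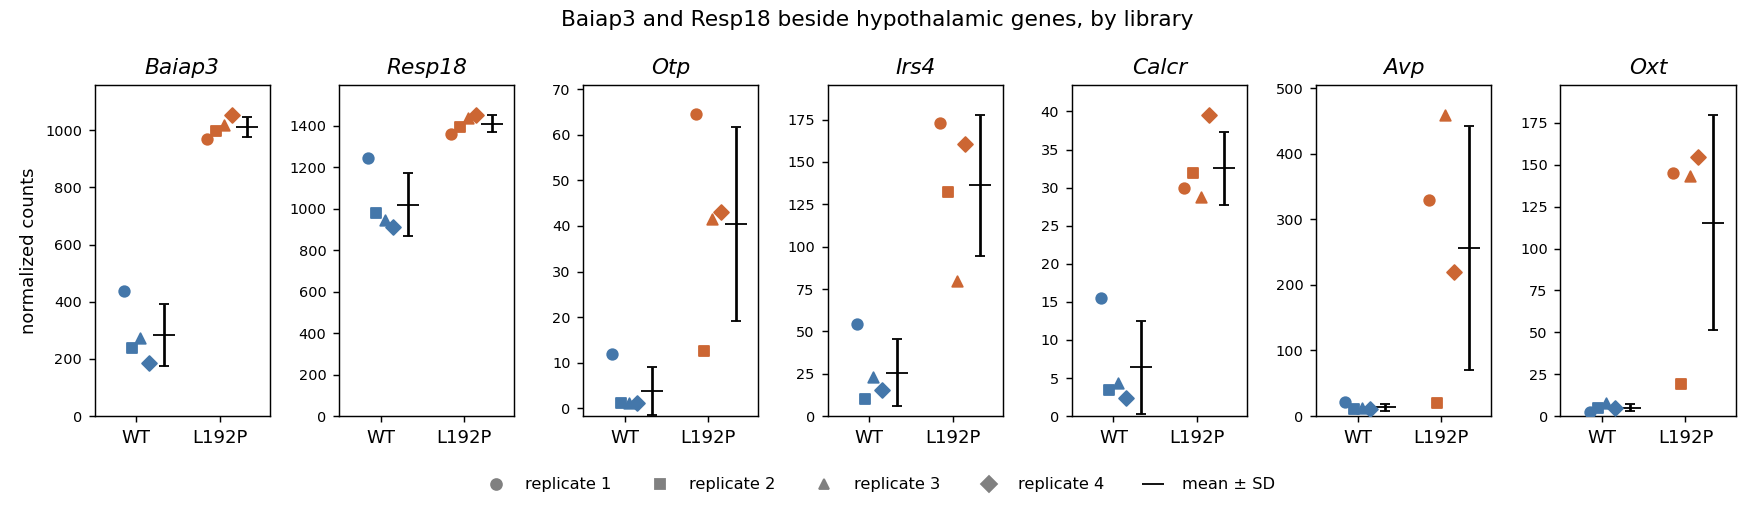
Normalized counts (y axis) of Baiap3, Resp18, the 3 called hypothalamus markers Otp, Irs4 and Calcr, and the precursors Avp and Oxt in each library, with a marker shape per replicate number and black bars for the mean and SD of each genotype. L192P replicate 2 is low for Otp, Avp and Oxt and lies among the other L192P libraries for Irs4, Calcr, Baiap3 and Resp18, and WT replicate 1 is the highest WT library in all panels but that of Oxt.

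The rest of the secretory pathway, apart from peptide precursors, was largely not called. Of 43 other granins, convertases, trimming and modifying enzymes, vesicle release factors and Munc13 genes, 42 were tested, 1 was called higher (Sytl4) and none lower. That is near the background of 1.36%, and 7 of the 42 had an unadjusted p under 0.05 beside 9.44% of all genes. Sytl4, which encodes granuphilin, a docking protein of dense-core vesicles, had 35.5, 9.1, 20.8 and 26.4 normalized counts in L192P and 4.55, 6.78, 7.6 and 7.02 in WT. All L192P libraries were above all WT libraries, with a log2 fold change of 1.83 (SE 0.51) at a DESeq2 adjusted p of 0.029, and 6 of 13 alternative fits called it, with adjusted p of 0.00744 to 0.209. L192P replicate 2 was again the lowest of its genotype.

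Among the other granins neither Scg2 nor Vgf was called. Vgf, whose product yields many secreted peptides, had 6186 ± 722 normalized counts (SD, n = 4) in L192P and 7234 ± 438 (SD, n = 4) in WT, a log2 fold change of -0.23 (SE 0.085) with a DESeq2 adjusted p of 0.219. With the replicate block, where 4.25% of tested genes were called, it was called lower (log2 fold change -0.23, DESeq2 adjusted p 0.000222). Of 7 other convertases none was called. Mbtps1, the site-1 protease and highest of these in mean count, had 1957 ± 50.3 (SD, n = 4) in L192P and 2126 ± 102 (SD, n = 4) in WT, with groups that did not overlap and a DESeq2 adjusted p of 0.517.

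Of 10 tested trimming and modifying enzymes none was called. Pam, the amidating enzyme and highest in mean count, stood at 5263 ± 244 (SD, n = 4) and 5365 ± 184 (SD, n = 4), with a DESeq2 adjusted p of 0.961. Rab3a, a vesicle GTPase and highest in mean count of the 19 vesicle biogenesis and release genes, stood at 15100 ± 441 (SD, n = 4) and 15130 ± 312 (SD, n = 4). None of the 4 other Munc13 genes was called, so that Baiap3 was the only called gene of that family. Unc13a, which primes synaptic vesicles and was highest in mean count, had a log2 fold change of -0.11 (SE 0.084) and a DESeq2 adjusted p of 0.79. With the replicate block Unc13c was called higher (log2 fold change 0.47, DESeq2 adjusted p 2.57e-06) and Cadps2, a vesicle priming factor, lower (log2 fold change -0.22, DESeq2 adjusted p 0.0495).

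Of the cargo that these enzymes process in cortex, 14 peptide precursors were tested, 1 was called higher and 2 lower. Penk, the enkephalin precursor, had 6334, 7883, 6750 and 8814 normalized counts in L192P and 10250, 10310, 9680 and 12210 in WT. All WT libraries were above all L192P libraries, with a log2 fold change of -0.51 (SE 0.1) and a DESeq2 adjusted p of 0.000286. The call was lost with edgeR, with limma-voom and without both libraries numbered 1, where the adjusted p reached 0.0595 at most. Markers of striatum, a region rich in enkephalin, summed to 26730 to 34540 normalized counts in L192P and 34990 to 43330 in WT, ranges that did not overlap. Their part in the difference of Penk was not tested.

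Cck, the cholecystokinin precursor of cortical neurons, had 5946, 7132, 7001 and 7053 in L192P and 8093, 8240, 7978 and 7577 in WT (log2 fold change -0.23, SE 0.069, DESeq2 adjusted p 0.0498). The groups were apart, but 6 of 19 alternative fits called Cck. Tac2, the neurokinin B precursor, had 226, 178, 202 and 231 in L192P and 148, 147, 152 and 129 in WT (log2 fold change 0.53, SE 0.14, DESeq2 adjusted p 0.0144), and 9 of 19 alternative fits called it. With the replicate block Npy, the neuropeptide Y precursor, was called lower as well (log2 fold change -0.37, DESeq2 adjusted p 1.53e-05), beside Penk and Cck lower and Tac2 higher.

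The cortical excitatory neuron list, a check of the labelled tissue, summed to 40500 to 45860 normalized counts in L192P and 46350 to 48310 in WT. These ranges did not overlap, and all 8 genes had log2 fold changes below 0, from -0.30 to -0.037. DESeq2 called 0 of the 8, with 3 at an unadjusted p under 0.05, and the replicate block called 3 lower. Of 7 GABAergic markers, which mark the cells that make many cortical peptides, Gad2 was called higher, at 7230 ± 370 (SD, n = 4) in L192P and 5700 ± 825 (SD, n = 4) in WT with a DESeq2 adjusted p of 0.0235, and 12 of 19 alternative fits called it, with adjusted p up to 0.155. With the replicate block Gad2 and Adarb2 of this list were called higher and Pvalb and Lamp5 lower (log2 fold changes of -0.22 and -0.31). No gene was called on the lists of thalamus, hippocampus, choroid plexus, pituitary, pan-neuronal, astrocyte, oligodendrocyte, microglia, endothelial and red blood cell genes. The summed ranges of these lists overlapped between genotypes. Thalamus genes summed to 1986 to 5238 normalized counts in L192P and 1842 to 2442 in WT. Their median log2 fold change was 0.66, within a range of -0.024 to 1.515. Slc17a6 of that list had 1287, 741, 1711 and 876 in L192P and 764, 545, 688 and 692 in WT. The replicate block called Slc17a6, and Cx3cr1 of the microglia list, higher. Pituitary markers, which would mark endocrine tissue rich in granins, summed to 36.9 to 74 normalized counts in L192P and 35.8 to 108 in WT.

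Sites for miRNAs in the 10 genes bear on a study of Argonaute 2, and their sequences are shown for the families with a site in Pcsk2 or Baiap3. A site was an exact match to the complement of the seed, bases 2 to 8 of the mature miRNA, within the canonical 3′ UTR, searched for 11 families. The mature sequences are those of RefSeq, with the seed in capitals.
miR-138-5p: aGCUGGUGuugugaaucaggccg
miR-92a-3p: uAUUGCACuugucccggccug
miR-29a-3p: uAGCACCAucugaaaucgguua
miR-9-5p: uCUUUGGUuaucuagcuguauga
miR-5121: aGCUUGUGaugagacaucucc

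Pcsk2 had sites of 5 of the 11 families in a 3′ UTR of 3776 bases, the longest of the 10, beside a median of 1214 bases over 17681 genes. Pcsk1 had sites of 3 families in 3525 bases. Chgb, Scg3 and Baiap3 had 1 family each, and Chga, Scg5, Pcsk1n, Cpe and Resp18 had none, Resp18 with a 3′ UTR of 113 bases. Among all 17681 genes, a miR-138 site was in 14.5%, a miR-92a site in 7.4%, a miR-29a site in 15.3%, a miR-9 site in 14.3% and a miR-5121 site in 10.4%. Sites are shown on the gene's strand in GRCm39, with the 7 matched bases in capitals.
Baiap3 miR-138, chr17:25461646-25461675: tgaataatgcaCACCAGCttcaataatatg
Pcsk2 miR-138, chr2:143655791-143655820: gttctggcagcCACCAGCcacccagcaatt
Pcsk2 miR-138, chr2:143656376-143656405: ggctcttctgtCACCAGCtactgctcttca
Pcsk2 miR-92a, chr2:143656727-143656756: ctatcactggaGTGCAATatctccctccct
Pcsk2 miR-92a, chr2:143658298-143658327: gcatgacagatGTGCAATttgcagataagt
Pcsk2 miR-29a, chr2:143659154-143659183: cccccctctcaTGGTGCTtagtattcctgg
Pcsk2 miR-29a, chr2:143659220-143659249: ctcctcgcagaTGGTGCTatgcattattgc
Pcsk2 miR-9, chr2:143657482-143657511: ctggaaataaaACCAAAGgacattctgtgt
Pcsk2 miR-5121, chr2:143655824-143655853: gttacccccgaCACAAGCaatcccagcctg
Pcsk2 and Baiap3 share the miR-138 family. Of these genes Baiap3 was called higher, and Pcsk2 was not called. The matches are descriptions of the reference sequence, and their relation to binding or to the fold changes was not tested.

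Exons of some of the 10 genes overlap those of other genes, and whether the counting used strand is not given in the sources used here. Baiap3 shares 142 exonic bases with Tsr3 on the opposite strand, which had 447 ± 44.5 normalized counts (SD, n = 4) in L192P and 460 ± 45.5 (SD, n = 4) in WT, with a DESeq2 adjusted p of 0.976. Resp18 shares 40 bases with Gm28902, which averaged 1.49 and 2.45 normalized counts. Pcsk2 shares 260 bases with Pcsk2os1, which averaged 92.6 and 105 normalized counts, against 8790 and 9593 for Pcsk2. Baiap3 also shares 13 bases with Mir3547 on the same strand. Reads in bases shared with the opposite strand would be uncertain if strand was not used, and those in the Mir3547 bases either way.

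Genes whose pattern was most like the mean profile of the 10 were ranked by Pearson r over the 8 libraries among 13412 genes. That mean follows mainly Baiap3 (r of 0.947 with the mean) and Resp18 (0.938), because the other 8 varied little, with SDs of 0.035 to 0.187 log2 units. The nearest were Gaa (r 0.985), Slc29a1 (0.972), Smoc1 (0.972), Tmem130 (0.964) and Slc5a3 (0.962). Tmem130, Gaa and Smoc1 were called higher, with DESeq2 adjusted p of 1.22e-05, 0.00728 and 0.0216, and Slc29a1 and Slc5a3 were not (0.0689 and 0.0622). Genes picked for likeness to a profile that differs by genotype will themselves tend to differ by genotype. These calls therefore follow in part from the ranking and are no separate result. For deviations from the genotype means those near the top were Fahd1 (0.963), Sra1 (0.961), Lrpap1 (0.95) and Cenpt (0.946), none of which was called or stood on the first list.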

How the data were processed

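Polyadenylated RNA of 8 cortex samples was sequenced. The authors aligned reads to GRCm39 with STAR 2.7.9a, counted them per gene with featureCounts 1.5.1 and deposited raw counts per library, versions being those of the submitters' processing notes. The Ensembl release and strand setting are not given in the sources used here. The authors also deposited normalized signal, which equalled count over size factor within 3.49e-10 and was used only for that check.

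DESeq2 1.42.0 in R 4.3.3 was fitted to the counts with genotype as the only term, after the methods of the study, at an adjusted p of 0.05 without a fold minimum. Independent filtering set aside 14037 of 32676 genes with counts, and the Cook filter 12. Depth was 20396357 to 43575900 counts per library, so genes of few counts have wide intervals. Permutation tests were exact (70 assignments of the genotype labels). The 194 rows with a gene identifier but no symbol stayed in the fit.

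The 10 genes and the gene lists were chosen with earlier results of these data known. Named from other lists were the called genes, the gene of highest mean count in each pathway list, for both hypothalamic lists the 2 of highest mean count, and the 5 genes most like the mean profile. Some genes that this rule names are not reported here. Genes called only with the replicate block were named after their values were seen, and the untested genes of both hypothalamic lists stand outside that rule.

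No pair of libraries of the same genotype agreed within sampling noise (chi-square per degree of freedom 5.52 to 22.6). Deviations over 13422 genes correlated between same-numbered libraries at 0.628, 0.381, 0.233 and 0.327, and between others at -0.375 to 0.144. These replicate numbers are part of the sample labels, where nothing explains them, and were taken to pair the libraries.

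Alternatives were edgeR 4.0.16 and limma 3.58.1 (voom), DESeq2 with TMM or total-count scaling, only genes of 10 counts in 4 libraries, independent or Cook filtering off, a block for replicate number (the replicate block), 1 surrogate variable (sva 3.50.0), and fits without each library or without both numbered 1. Programs were tested on simulated data. Positions, promoters and 3′ UTRs came from GENCODE M39, in which 98.9% of gene identifiers with counts were found, and miRNA sequences from RefSeq (GRCm38.p6).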

Additional observations from a re-analysis of the deposited data

Results flagged for a closer look

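In 7 of 64 groups of 4 libraries, where chance gives about 1 in 20 or 3.2, Dixon's criterion set 1 library apart from the 3 others. Chga in L192P replicate 1 was at 3605 normalized counts against 4387 to 4520. Chgb in WT replicate 3 was at 13590 against 12090 to 12330. Cck in L192P replicate 1 was at 5946 against 7001 to 7132. Oxt in L192P replicate 2 was at 19.4 against 143 to 154. In WT replicate 1, Avp was at 21.9 against 10.5 to 11.9, Otp at 11.8 against 1.09 to 1.17, and Calcr at 15.5 against 2.34 to 4.34. Baiap3 and Resp18 had no such library in either genotype.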

How the results depend on the processing

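Resp18 and Baiap3 were called in all 19 alternatives, and the other 8 genes in none but Pcsk2 in the added one (-0.171, adjusted p 0.0251). The number of all genes called, 253 by DESeq2, was 53 with edgeR, 45 with limma-voom, 533 with the replicate block, 500 without both libraries numbered 1 and 572 with the block added to that, and 112 to 496 when 1 library was left out, the last without WT replicate 1. With total-count size factors 168 were higher and 64 lower, against 147 and 106, and the median of all genes was 0.026. The number of other pathway genes called, 7 by DESeq2, was 2 with edgeR, 0 with limma-voom (17 had an unadjusted p under 0.05 by DESeq2), 8 with TMM factors, 9 with the replicate block, 10 with 1 surrogate variable and 3 to 8 when 1 library was left out.

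The Scg5 to Pcsk2 difference, whose p adjusted over both ratios was 0.0571, kept its sign in all 10 alternatives. Its unadjusted p was above 0.05 without L192P replicate 1, 2, 3 or 4 or WT replicate 4 (differences with 1 library left out 0.092 to 0.161). The replicate block as a sign-flip test (0.138, p 0.125) and the test without both libraries numbered 1 (0.173, exact p 0.1) gave the smallest p they can give and so could not pass the threshold. The Pcsk1n to Pcsk1 difference turned to -0.0306 without L192P replicate 2, -0.0893 without L192P replicate 3 or WT replicate 1, and -0.0177 without WT replicate 4, within a range of -0.0893 to 0.133.

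Fold changes of genes that were not called changed sign as follows, and the cause was not tested. With 1 library left out, Scg3 ran from -0.0631 to 0.04, Scg5 from -0.00977 to 0.0282, Pcsk1 from -0.0538 to 0.0631, Pcsk1n from -0.0571 to 0.118 and Cpe from -0.08 to 0.012. Without both libraries numbered 1, Scg3 was 0.0112 and Pcsk1 0.0194, and with the block added 0.0104 and 0.0173. Pcsk1 was 0.0176 with total-count size factors, and with 1 surrogate variable Pcsk1 was 0.000191 and Pcsk1n -0.00104. The replicate block added the calls given beside Vgf, Unc13c, Cadps2, Npy and Trh and calls on marker lists, left Sytl4, Oxt, Gal, Otp and Calcr without an adjusted p, and changed no other call of a listed gene.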
